A study of Mus musculus with 18 samples.

Results

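Liver cells make triglyceride from glycerol 3-phosphate and fatty acids, and 8 genes of that route are described here: Gpd1, Gpam, Agpat2, Lpin1, Lpin2, Dgat1, Dgat2 and Mogat1. They were listed by symbol and matched to the Ensembl identifiers of the deposited count table, in which all 8 were found among 28030 genes. All 8 were also among the 12477 genes with enough counts to be tested. RNA was sequenced from hepatocytes taken from the pericentral or the periportal zone of the liver lobule, the ends where blood leaves and enters it. Digitonin, a detergent, had been used to separate the zones. Each zone was sampled in 3 feeding states, which gave 6 groups of 3 libraries. All mice were wild-type C57BL/6J males aged 12 weeks on normal chow, trained for 3 days to a cycle of 16 h without food and 8 h with food. Fed mice had 4 h of food with 20% sucrose in the water and were killed at clock hour 13. From the remaining mice both were withdrawn then, and these were sampled after 8 h without food, at clock hour 21, or after 24 h, at clock hour 13 of the next day. In the 8 h groups, fasting and clock hour therefore cannot be told apart. The labels do not say whether replicates were separate mice or whether the zones of a replicate number shared a mouse. P-values here measure the spread between these libraries, which may be partly technical.

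As background, the route starts with Gpd1, the cytosolic glycerol-3-phosphate dehydrogenase that makes glycerol 3-phosphate from a glycolytic intermediate. Gpam encodes the mitochondrial glycerol-3-phosphate acyltransferase, which adds the first fatty acid and yields lysophosphatidate. Agpat2 adds the next fatty acid and yields phosphatidate, the branch point towards phospholipids. The lipins Lpin1 and Lpin2 are phosphatidate phosphatases that give diacylglycerol, and lipin 1 also acts in the nucleus as a coregulator of transcription. Dgat1 and Dgat2 are unrelated acyltransferases that complete triglyceride, with Dgat2 tied to newly made fatty acids in liver. Mogat1 makes diacylglycerol from monoacylglycerol and so bypasses the first steps. In liver the route serves storage in droplets and export in lipoproteins, and it meets fatty acids made after a meal as well as those that arrive from fat tissue in fasting.

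Libraries held 18360000 to 26384000 estimated counts and 15145 to 15840 genes with a count. The 7 hepatocyte markers (Alb and Cps1 among them) summed to between 62900 and 198000 CPM in every library, where CPM are counts scaled to the library's total times its TMM factor. The 6 adipocyte markers summed to at most 0.932 CPM, with Plin1 at 0 in all 18 libraries. Of the markers of other liver cells, those of sinusoidal endothelial cells summed to 3.39 to 30.7 CPM, those of Kupffer cells and leukocytes to 0.727 to 26.4 CPM, those of stellate cells and fibroblasts to 0.696 to 14.7 CPM and those of cholangiocytes to 19.3 to 56.7 CPM, with Epcam at 0 in all 18. One pericentral library, replicate 2 of the 24 h group, stood apart on the zone markers. Its pericentral markers Glul (111 CPM, against 928 and 707 in replicates 1 and 3), Oat (257 against 1050 and 1160), Cyp1a2 (202 against 448 and 387) and Axin2 (2.5 against 7.31 and 6.52) were low in its group. Its periportal markers Cyp2f2 (793 against 345 and 322), Hal (466 against 243 and 196) and Sds (215 against 101 and 94.8) were high, though below every periportal library of that state, and Cyp2e1 was at 10300 CPM against 13000 and 16100. Not all listed zone markers went this way. Gls2 was high too (320 against 180 and 194), but periportal Pck1 was level (4840 against 4790 and 4820). Periportal Ass1 was the lowest of its group (2880 against 3470 and 3690), and pericentral Cyp7a1 lay between the others (282 against 491 and 213). Called results that use this library are also given without it. In bulk libraries, fewer cells of a kind and less RNA per cell cannot be told apart.

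The 8 genes differed widely in level. Per kilobase of the median coding transcript, and averaged over the 18 libraries, Dgat2 stood at 540 CPM, Agpat2 at 216, Gpd1 at 178, Lpin2 at 87.7, Lpin1 at 61.5, Dgat1 at 11.8, Gpam at 1.18 and Mogat1 at 0.696 CPM per kb. With the length of all merged exons instead, the order of Agpat2 and Gpd1 swapped, at 97.6 and 132 CPM per kb. Dgat2 was thus the most abundant acyltransferase of the 8 genes, and Gpam and Mogat1 were scarce, with 31.2% and 10.2% of the genes tested below them in mean CPM.

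**Figure D1:**
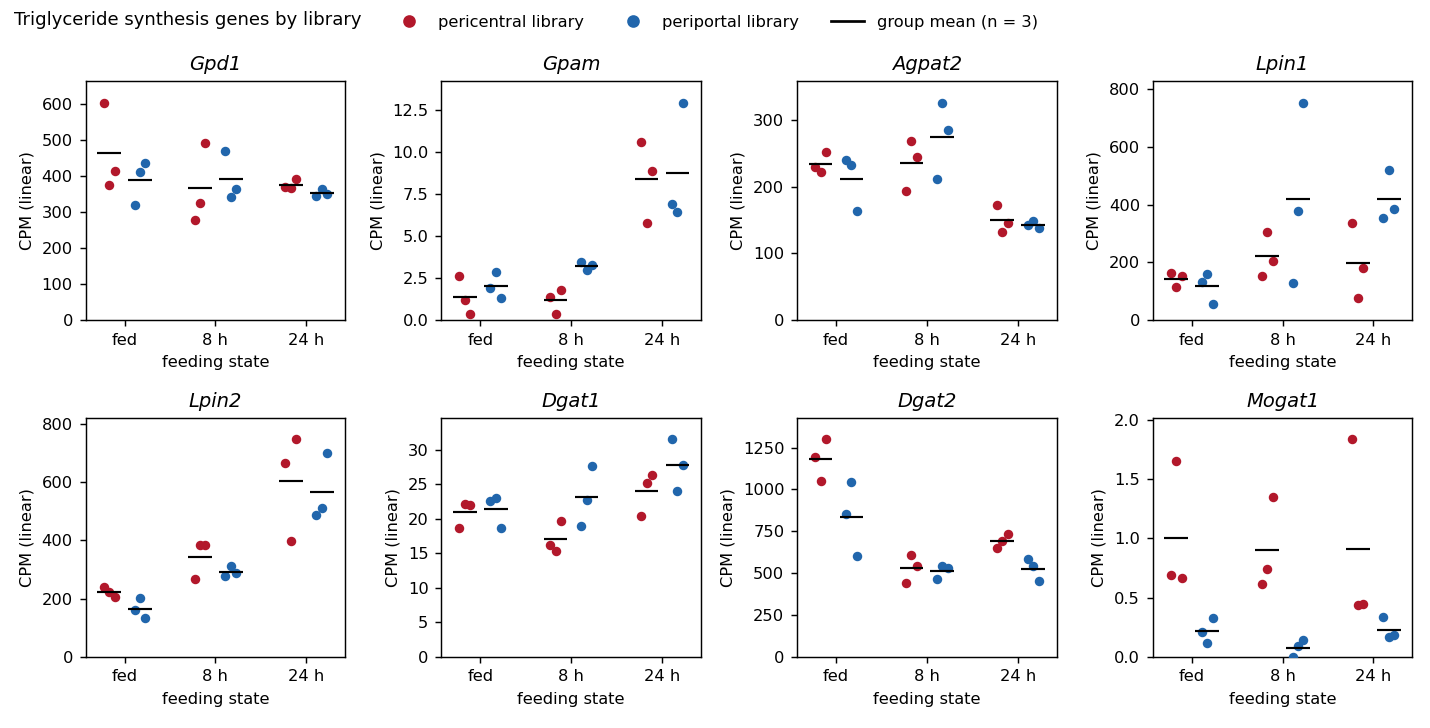
CPM of the 8 triglyceride synthesis genes in each of the 18 libraries, by feeding state, with pericentral libraries in red, periportal libraries in blue and a bar at each group mean of 3 libraries. Dgat2 is highest in the pericentral fed libraries (1051 to 1299 CPM), Lpin2 and Gpam are highest after 24 h of fasting, and every periportal Mogat1 value lies below the pericentral values of its state.

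Upstream DNA is shown for genes that changed after 24 h of fasting in at least 1 zone and for which RefSeq (GRCm38.p6) gave a window free of the gene's own exons, with a further Lpin2 window not shown. The windows hold the 250 bases before an annotated start, read 5′ to 3′ on the gene's strand. Capitals mark matches, on either strand, to the E-box CACGTG, the cAMP response core TGACG, the CCAAT box or the nuclear receptor core AGGTCA. A match on the other strand shows in capitals as its reverse complement. Lpin2 and Gpam rose and Agpat2 fell in both zones, and Lpin1 rose in periportal cells.
Lpin2, chr17:71183282-71183531, plus strand: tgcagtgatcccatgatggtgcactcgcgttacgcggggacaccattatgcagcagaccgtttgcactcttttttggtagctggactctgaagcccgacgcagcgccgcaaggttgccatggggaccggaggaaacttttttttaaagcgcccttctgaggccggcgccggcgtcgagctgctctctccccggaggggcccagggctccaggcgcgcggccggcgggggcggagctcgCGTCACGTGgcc
Lpin1, chr12:16610967-16611216, minus strand: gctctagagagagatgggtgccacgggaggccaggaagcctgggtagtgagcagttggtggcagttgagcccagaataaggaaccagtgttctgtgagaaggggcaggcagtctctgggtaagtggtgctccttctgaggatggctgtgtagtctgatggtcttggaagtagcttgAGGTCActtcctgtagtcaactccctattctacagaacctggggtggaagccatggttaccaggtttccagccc
Gpam, chr19:55099478-55099727, minus strand: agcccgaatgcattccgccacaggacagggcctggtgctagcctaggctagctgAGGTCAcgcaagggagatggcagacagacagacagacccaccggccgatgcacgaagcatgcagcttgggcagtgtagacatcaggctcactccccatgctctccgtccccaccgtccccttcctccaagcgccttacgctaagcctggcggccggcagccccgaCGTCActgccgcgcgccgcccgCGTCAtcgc
Gpam, chr19:55127239-55127488, minus strand: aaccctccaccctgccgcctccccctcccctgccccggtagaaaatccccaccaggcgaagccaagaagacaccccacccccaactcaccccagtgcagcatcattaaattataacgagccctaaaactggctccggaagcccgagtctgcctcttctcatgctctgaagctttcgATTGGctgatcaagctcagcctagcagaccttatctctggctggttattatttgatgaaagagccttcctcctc
Agpat2, chr2:26604418-26604667, minus strand: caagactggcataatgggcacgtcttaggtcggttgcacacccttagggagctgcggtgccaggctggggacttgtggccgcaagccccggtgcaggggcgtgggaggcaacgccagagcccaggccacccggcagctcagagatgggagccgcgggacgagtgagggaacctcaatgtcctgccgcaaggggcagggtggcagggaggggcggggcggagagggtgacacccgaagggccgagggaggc

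In the Lpin2 window shown, an E-box spanned bases 9 to 4 before the start and overlapped a TGACG match on the other strand at bases 12 to 8. The further Lpin2 window free of its exons, at chr17:71204404-71204653, held CCAAT boxes on the other strand. They lay at bases 233 to 229, 165 to 161 and 57 to 53 before that start. Both of these Lpin2 windows lay inside the annotated span of the gene (chr17:71182560-71249817), before inner starts. The Lpin1 window held an AGGTCA match at bases 74 to 69 before the start. The Gpam window at the inner start held an AGGTCA match at bases 196 to 191 and TGACG matches on the other strand at bases 31 to 27 and 9 to 5. The upstream Gpam window held a CCAAT box on the other strand at bases 74 to 70, and the Agpat2 window held none of these motifs. Over all 32851 windows of 250 bases in the table, 6.02% held CACGTG, 17.8% TGACG, 33.8% CCAAT and 14% AGGTCA. These matches describe the letters of the windows and say nothing of binding.

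Gpd1 (ENSMUSG00000023019, GRCm38 chr15:99717515-99725005), which supplies the glycerol backbone, was called in none of the 13 comparisons. In the pericentral libraries it was at 604, 376 and 414 CPM fed, at 279, 326 and 493 CPM after 8 h and at 371, 367 and 391 CPM after 24 h (replicates 1, 2 and 3 in this and all later listings). In the periportal libraries it was at 320, 410 and 436 CPM fed, at 469, 343 and 365 CPM after 8 h and at 345, 365 and 352 CPM after 24 h. All neighbours in the order of the 6 group means overlapped in their libraries. A gene counted as called where its adjusted p (edgeR, quasi-likelihood test, Benjamini-Hochberg over all genes tested) was under 0.05. Its largest fitted change was a log2 fold change of -0.34 (SE 0.20, 95% interval -0.77 to 0.08, adjusted p = 0.299 by edgeR) in pericentral cells from fed to 8 h. Without pericentral 8 h replicate 3, the library at 493 CPM, that change was -0.61 with an adjusted p of 0.0493.

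Gpam (ENSMUSG00000024978, GRCm38 chr19:55067268-55127238), the mitochondrial enzyme of the first acylation, rose after 24 h of fasting in both zones from a very low level. Pericentral libraries stood at 2.63, 1.22 and 0.35 CPM fed, at 1.35, 0.372 and 1.78 CPM after 8 h and at 10.6, 5.77 and 8.85 CPM after 24 h. Periportal libraries stood at 1.90, 2.88 and 1.32 CPM fed, at 3.47, 2.98 and 3.26 CPM after 8 h and at 6.88, 6.40 and 12.9 CPM after 24 h. Every 24 h library of both zones lay above every fed and every 8 h library.

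The pericentral rise of Gpam from fed to 24 h was a log2 fold change of 2.56 (5.92-fold, SE 0.55, adjusted p = 0.00388 by edgeR), and without the pericentral library that stood apart it was 2.78 (adjusted p = 0.00538). Between 8 h and 24 h pericentral Gpam changed by 2.82 (SE 0.57, adjusted p = 0.0068), or by 3.03 without the library that stood apart (adjusted p = 0.0112), and its fed and 8 h libraries overlapped. In periportal cells the change from fed to 24 h was 2.10 (4.30-fold, SE 0.54, adjusted p = 0.0127 by edgeR). That call was lost without periportal fed replicate 1 (2.06, adjusted p = 0.0531), without periportal fed replicate 3 (1.86, adjusted p = 0.0572) or without periportal 24 h replicate 3 (1.71, adjusted p = 0.063). Between 8 h and 24 h periportal Gpam changed by 1.43 (95% interval 0.32 to 2.54, adjusted p = 0.112 by edgeR). This step was called by DESeq2 and with only the groups compared in the fit. The zone difference from 8 h to 24 h was -1.39 and was not called (adjusted p = 0.829 by edgeR). After 8 h the periportal libraries all lay above the pericentral ones, but that difference of 1.45 (95% interval 0.23 to 2.66) missed the threshold (adjusted p = 0.151 by edgeR). The mean zone difference of Gpam over the states was 0.67 (adjusted p = 0.155), or 0.95 without pericentral fed replicate 1 (adjusted p = 0.0366). Gpam rested on 8.07 to 281 estimated counts per library. As background, Gpam is known as a target of insulin and SREBP-1c in liver. For a gene known as an active liver enzyme, this level is unexpectedly low. Which of its transcripts were indexed for counting is not given in the sources used here, and the part of this in its level was not tested, so its changes are those of the transcripts counted.

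Agpat2 (ENSMUSG00000026922, GRCm38 chr2:26593057-26604417), which makes phosphatidate, fell after 24 h of fasting in both zones and was not called after 8 h. Pericentral values were 230, 222 and 252 CPM fed, 193, 268 and 244 CPM after 8 h and 172, 133 and 145 CPM after 24 h. Periportal values were 240, 232 and 164 CPM fed, 211, 325 and 284 CPM after 8 h and 142, 148 and 138 CPM after 24 h. In each zone all 24 h libraries lay below all fed and all 8 h libraries, and the periportal 24 h libraries lay closest together.

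From fed to 24 h, pericentral Agpat2 changed by a log2 fold change of -0.65 (SE 0.17, adjusted p = 0.0112 by edgeR). Without the pericentral library that stood apart, which was also the lowest of its group, the change was -0.57 and just missed the threshold (adjusted p = 0.0516). Periportal Agpat2 changed by -0.57 (SE 0.17, adjusted p = 0.0248). The periportal call was lost without fed replicate 1 (-0.47, adjusted p = 0.113), fed replicate 2 (-0.51, adjusted p = 0.0849) or any of 24 h replicates 1 to 3 (-0.55 to -0.60, adjusted p between 0.0564 and 0.0793). From 8 h to 24 h Agpat2 changed by -0.94 in periportal cells (SE 0.17, adjusted p = 0.00356 by edgeR), a call that held without any 1 library, and by -0.65 in pericentral cells (SE 0.17, adjusted p = 0.0226). The pericentral step was lost without pericentral 8 h replicate 2 (-0.56, adjusted p = 0.0878) or 3 (-0.64, adjusted p = 0.0527), and without pericentral 24 h replicate 2 (-0.57, adjusted p = 0.0916) or 3 (-0.63, adjusted p = 0.0863). From fed to 8 h the periportal value was 0.37 (adjusted p = 0.161 by edgeR), and without periportal 8 h replicate 1 it was 0.53 (adjusted p = 0.0421). Agpat2 was not called between zones in any state, with a mean difference over the states of 0.00 (95% interval -0.20 to 0.21). Its locus overlaps Egfl7 on the opposite strand, which held 4 to 38 estimated counts against 2543 to 7319 for Agpat2.

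Lpin2 (ENSMUSG00000024052, GRCm38 chr17:71182560-71249817) rose in both zones after 24 h of fasting, and after 8 h its rise was called in periportal cells only. Pericentral values were 239, 222 and 206 CPM fed, 266, 384 and 383 CPM after 8 h and 666, 397 and 746 CPM after 24 h. Periportal values were 160, 203 and 134 CPM fed, 276, 312 and 289 CPM after 8 h and 488, 510 and 699 CPM after 24 h. Within a zone the libraries of the 3 states did not overlap, and the pericentral 24 h replicate of 397 CPM is the library that stood apart.

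At 24 h Lpin2 was 2.72-fold its fed level in pericentral cells (log2 fold change 1.44, SE 0.22, adjusted p = 0.000229 by edgeR), or 1.67 on the log2 scale without the library that stood apart (adjusted p = 4.7e-05). In periportal cells it was 3.42-fold its fed level (log2 fold change 1.77, SE 0.22, adjusted p = 5.47e-05 by edgeR). Both of these calls held under all 26 alternative settings. After 8 h the periportal change was 0.82 (SE 0.22, adjusted p = 0.0173), while the pericentral change of 0.63 missed the threshold (SE 0.22, adjusted p = 0.0625). The difference between these changes was 0.19 (95% interval -0.45 to 0.83, adjusted p = 0.98 by edgeR). An earlier rise in periportal cells was therefore not shown. The 8 h periportal call was lost without periportal fed replicate 1 (0.80, adjusted p = 0.0663), fed replicate 3 (0.69, adjusted p = 0.0745) or 8 h replicate 2 (0.77, adjusted p = 0.0575). The pericentral value was called without pericentral 8 h replicate 1 (0.79, adjusted p = 0.0332) and without pericentral 24 h replicate 2 (0.63, adjusted p = 0.0238).

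Between 8 h and 24 h Lpin2 rose by 0.81 in pericentral cells (SE 0.22, adjusted p = 0.026 by edgeR; 1.04 and 0.00632 without the library that stood apart) and by 0.95 in periportal cells (SE 0.22, adjusted p = 0.0144). The pericentral step was lost without 8 h replicate 1 (0.65, adjusted p = 0.127), 8 h replicate 2 (0.88, adjusted p = 0.0548), 24 h replicate 1 (0.72, adjusted p = 0.0809) or 24 h replicate 3 (0.63, adjusted p = 0.133). The periportal step was lost without periportal 24 h replicate 3 (0.77, adjusted p = 0.067). Between zones Lpin2 was not called, and its mean difference over the states was -0.25 (95% interval -0.51 to 0.01, adjusted p = 0.179); without pericentral 24 h replicate 2 it was -0.33 (adjusted p = 0.0374).

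Lpin1 (ENSMUSG00000020593, GRCm38 chr12:16535669-16610966) varied widely between libraries of 1 group. Pericentral values were 164, 115 and 151 CPM fed, 154, 306 and 206 CPM after 8 h and 334, 78.0 and 182 CPM after 24 h. Periportal values were 134, 160 and 56.0 CPM fed, 127, 376 and 752 CPM after 8 h and 353, 518 and 386 CPM after 24 h. The lowest pericentral 24 h value came from the library that stood apart. The highest value of all came from periportal 8 h replicate 3, which also had the highest endothelial and stellate marker sums of all libraries (30.7 and 14.7 CPM). The part of those cells in its Lpin1 level was not tested. Periportal 8 h replicate 1, at 127 CPM of Lpin1, was the lowest of its group in every listed periportal marker. Among these were Sds (222 against 629 and 710 CPM) and Pck1 (2570 against 6060 and 5360 CPM). The bearing of this on Lpin1 was not tested either. Only the periportal 24 h libraries were apart from the fed libraries of their zone.

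The periportal change of Lpin1 from fed to 24 h, a log2 fold change of 1.85 (3.59-fold, SE 0.61, 95% interval 0.53 to 3.16), sat at the threshold (adjusted p = 0.0496 by edgeR). It lost its call without any 1 of 14 of the 18 libraries, where Lpin1 changed by 1.51 to 2.14 with adjusted p between 0.0563 and 0.155. Those 14 were all 3 pericentral fed, all 3 periportal fed, all 3 pericentral 8 h and all 3 periportal 24 h libraries, with periportal 8 h replicate 2 and pericentral 24 h replicate 3. From fed to 8 h the periportal value was 1.84 (SE 0.61, adjusted p = 0.0607) and was not called; without periportal 8 h replicate 3 it was 1.11 (adjusted p = 0.274). It was called without periportal 8 h replicate 1 (2.28, adjusted p = 0.0181), pericentral 24 h replicate 1 (1.85, adjusted p = 0.0492) or pericentral 24 h replicate 2 (1.84, adjusted p = 0.0429). In pericentral cells the fed to 24 h value was 0.47 (SE 0.59, 95% interval -0.81 to 1.75, adjusted p = 0.632), 0.85 without the library that stood apart (adjusted p = 0.374) and -0.15 without pericentral 24 h replicate 1 (adjusted p = 0.899). As background, Lpin1 is known as a fasting gene of liver that answers to glucocorticoids and to the coactivator PGC-1α.

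Within each library the balance of the lipins was also taken as the log2 ratio of their estimated counts, a description with no test. In the fed state Lpin1 over Lpin2 averaged -0.65 ± 0.27 (SD, n = 3) in pericentral and -0.62 ± 0.55 in periportal libraries. After 24 h it was -0.995, -2.35 and -2.04 in pericentral libraries and -0.47, 0.02 and -0.86 in periportal libraries. All 3 periportal ratios lay above all 3 pericentral ones in that state. After 8 h the periportal ratios ran from -1.12 to 1.38, around the pericentral range of -0.90 to -0.33.

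Dgat1 (ENSMUSG00000022555, GRCm38 chr15:76502015-76511953), a triglyceride-forming acyltransferase of the endoplasmic reticulum, stayed between 15.3 and 31.5 CPM. Pericentral values were 18.7, 22.1 and 21.9 CPM fed, 16.3, 15.3 and 19.7 CPM after 8 h and 20.3, 25.2 and 26.3 CPM after 24 h. Periportal values were 22.5, 23.0 and 18.7 CPM fed, 19.0, 22.8 and 27.7 CPM after 8 h and 31.5, 24.1 and 27.7 CPM after 24 h. All 6 groups overlapped with their neighbours in the order of means.

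No comparison called Dgat1 in edgeR. The nearest was pericentral 24 h against 8 h, a log2 fold change of 0.49 (SE 0.15, adjusted p = 0.0543 by edgeR), where the libraries of the groups did not overlap. DESeq2 called that comparison (0.49, adjusted p = 0.0307). In edgeR it was called when pericentral 8 h replicate 3 (0.58, adjusted p = 0.0436), periportal 8 h replicate 1 (0.47, adjusted p = 0.0429), periportal 8 h replicate 3 (0.49, adjusted p = 0.0408) or pericentral 24 h replicate 1 (0.57, adjusted p = 0.0407) was left out. Without periportal 8 h replicate 1, Dgat1 was also called higher in periportal cells after 8 h (0.55, adjusted p = 0.0349, against 0.44 and 0.101 with all libraries) and on average over the states (0.26, adjusted p = 0.0323, against 0.23 and 0.0789). From fed to 24 h the periportal value was 0.37 (95% interval 0.05 to 0.69, adjusted p = 0.095).

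Dgat2 (ENSMUSG00000030747, GRCm38 chr7:99153658-99182719), the other enzyme of the final step, was the member that fell early. Pericentral values were 1195, 1051 and 1299 CPM fed, 438, 607 and 540 CPM after 8 h and 653, 693 and 734 CPM after 24 h. Periportal values were 853, 1042 and 604 CPM fed, 467, 544 and 528 CPM after 8 h and 587, 541 and 453 CPM after 24 h. In both zones every fasted library lay below every fed library, and the pericentral fed group was the highest of the 6. Periportal fed replicate 2 was the highest of its group in Dgat2 and in most pericentral markers. Its Cyp2e1 was at 1210 CPM (against 373 and 325 in replicates 1 and 3) and its Cyp1a2 at 119 (against 39 and 21). Oat, Glul and Axin2 went the same way, and Cyp7a1 lay between the others. Of its periportal markers Cyp2f2 and Hal were the lowest, Gls2 and Pck1 lay between and Sds and Ass1 were the highest. The bearing of this on Dgat2 was not tested.

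After 8 h Dgat2 had fallen 2.24-fold in pericentral cells (log2 fold change -1.16, SE 0.17, adjusted p = 0.000257 by edgeR), a call that held under all 26 alternatives. In periportal cells the fall was 1.62-fold (log2 fold change -0.70, SE 0.17, adjusted p = 0.0114), and that call was lost without periportal fed replicate 2 (-0.50, adjusted p = 0.0695). After 24 h pericentral Dgat2 stood at -0.77 against fed (SE 0.17, adjusted p = 0.00421 by edgeR), and also at -0.77 without the library that stood apart (adjusted p = 0.0155). Periportal Dgat2 stood at -0.66 (SE 0.17, adjusted p = 0.0125). That call was lost without periportal fed replicate 2 (-0.47, adjusted p = 0.0709) or periportal 24 h replicate 3 (-0.56, adjusted p = 0.0656). Between 8 h and 24 h the pericentral value of 0.39 (95% interval 0.03 to 0.75) was not called (adjusted p = 0.169), although the 24 h libraries all lay above the 8 h ones.

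Averaged over the states, Dgat2 was 1.24-fold lower in periportal than in pericentral cells (log2 fold change -0.31, SE 0.10, adjusted p = 0.0321 by edgeR). The fed libraries of the zones did not overlap, yet the fed difference alone was not called (-0.50, 95% interval -0.87 to -0.14, adjusted p = 0.0871). Without the library that stood apart the mean was -0.315 (adjusted p = 0.0479). Without periportal fed replicate 2 the fed value was -0.70 (adjusted p = 0.0226). The call of the mean was lost without pericentral fed replicate 3 (-0.29, adjusted p = 0.0614), pericentral 8 h replicate 2 (-0.29, adjusted p = 0.0602), pericentral 24 h replicate 3 (-0.30, adjusted p = 0.0587) or periportal 24 h replicate 3 (-0.28, adjusted p = 0.0692).

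For Dgat2 and Dgat1 too, the log2 ratio within a library was set out, again with no test. Dgat2 over Dgat1 averaged 5.82 ± 0.22 (SD, n = 3) in pericentral and 5.25 ± 0.24 in periportal fed libraries, 4.95 ± 0.31 and 4.49 ± 0.20 after 8 h and 4.86 ± 0.12 and 4.25 ± 0.23 after 24 h. In each state every periportal ratio lay below every pericentral ratio. In each zone every fasted ratio lay below every fed ratio.

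**Figure D2:**
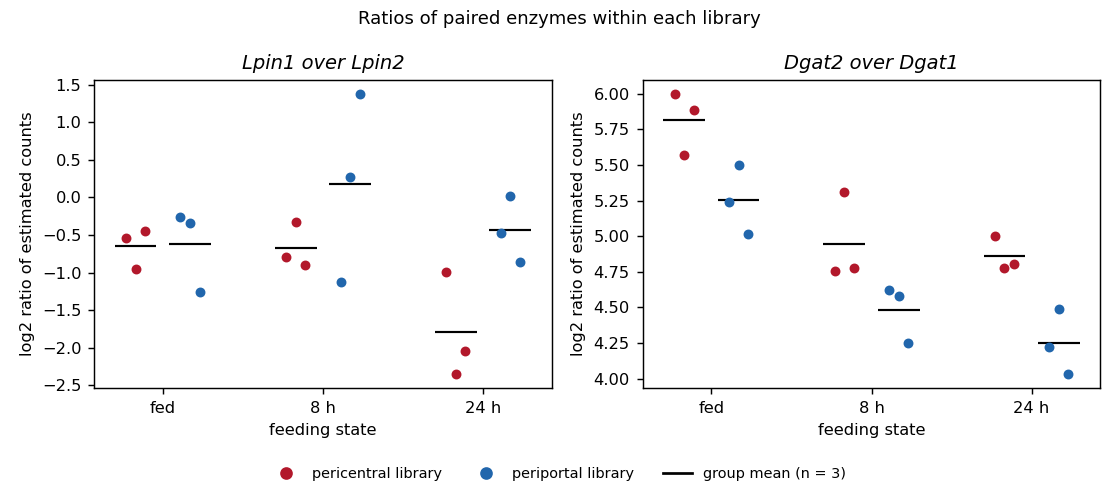
Log2 ratio of estimated counts within each library for Lpin1 over Lpin2 (left) and Dgat2 over Dgat1 (right), by feeding state, with 1 point per library and a bar at each mean of 3. The Dgat2 over Dgat1 ratio is lower in periportal than in pericentral libraries in each state, and the periportal Lpin1 over Lpin2 ratios after 8 h spread from -1.12 to 1.38.

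Mogat1 (ENSMUSG00000012187, GRCm38 chr1:78510991-78538173), the monoacylglycerol acyltransferase, was barely detected, and its pericentral libraries lay above the periportal ones in every state. Pericentral values were 0.691, 1.65 and 0.662 CPM fed, 0.615, 0.744 and 1.35 CPM after 8 h and 1.84, 0.441 and 0.445 CPM after 24 h. Periportal values were 0.206, 0.120 and 0.331 CPM fed, 0, 0.0889 and 0.140 CPM after 8 h and 0.335, 0.166 and 0.184 CPM after 24 h. No periportal library reached any pericentral library of its state. The library at 0 allows a level of up to 0.121 CPM, the value of 3 counts.

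Summed over 3 libraries, Mogat1 counts were 17 periportal against 79 pericentral in the fed state, 5 against 66 after 8 h and 14 against 68 after 24 h. Corrected for depth, the pericentral level was 4.44-fold (exact 95% interval 2.61 to 8.01), 12.6-fold (5.15 to 40.2) and 4.24-fold (2.36 to 8.16) the periportal one. These intervals cover counting error only. In the model over all libraries, the mean difference over the states was a log2 fold change of -2.56 (SE 0.43, adjusted p = 0.000335 by edgeR), which held without any 1 library. After 8 h it was -3.53 (SE 0.82, adjusted p = 0.0128), and that call was lost without pericentral 8 h replicate 3 (-3.13, adjusted p = 0.0517). The fed value of -2.16 (95% interval -3.61 to -0.70, adjusted p = 0.0671) was not called, nor was the 24 h value (95% interval -3.50 to -0.50, adjusted p = 0.141). Without the library that stood apart, the 24 h value was -2.34 (adjusted p = 0.105) and the mean over the states -2.68 (adjusted p = 0.000266). The fed value was called without periportal 8 h replicate 1 (-2.16, adjusted p = 0.0458) or pericentral 24 h replicate 1 (-2.16, adjusted p = 0.0389). No change of Mogat1 with fasting was called in either zone.

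The span of Mogat1 overlaps that of BC035947 on the opposite strand, and overlap of their exons was not tested. The use of strand is not given in the sources used here, so reads of these genes may have been mixed. BC035947 was listed at 36.1 estimated counts in pericentral fed replicate 1 and at 47.5 and 40.6 in pericentral 8 h replicates 1 and 2, and at 0 in the other 15 libraries. In the 6 pericentral libraries where BC035947 was at 0, Mogat1 held 9 to 47 estimated counts, against 0 to 9 in the 9 periportal libraries. An estimate of 0 does not show that reads of BC035947 were absent, since shared reads may be counted to Mogat1. Their part in the Mogat1 zone difference was not tested. With its few counts, the values of Mogat1 are given as uncertain.

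Between zones, 0 to 2 of the 8 genes were called in a comparison, given here beside the share of all genes tested. In the fed state 0 were called higher and 0 lower in periportal cells, where 3.89% and 4.13% of all genes tested were, and 2 had an unadjusted p under 0.05. DESeq2 called 2 there (Dgat2 and Mogat1) and limma-voom 0. After 8 h 0 were called higher and 1 lower (Mogat1), against 3.72% and 3.42% of all genes. After 24 h 0 were called higher and 0 lower, against 1.7% and 2.47%, with 2 at an unadjusted p under 0.05 and 0 by DESeq2 or limma-voom. Averaged over the states 0 were called higher and 2 lower (Dgat2 and Mogat1), against 10.3% and 9.96%. The median log2 fold change of the 8 genes lay between -0.28 and 0.16 in the states, and that of all genes tested between 0.00 and 0.01.

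**Figure D3:**
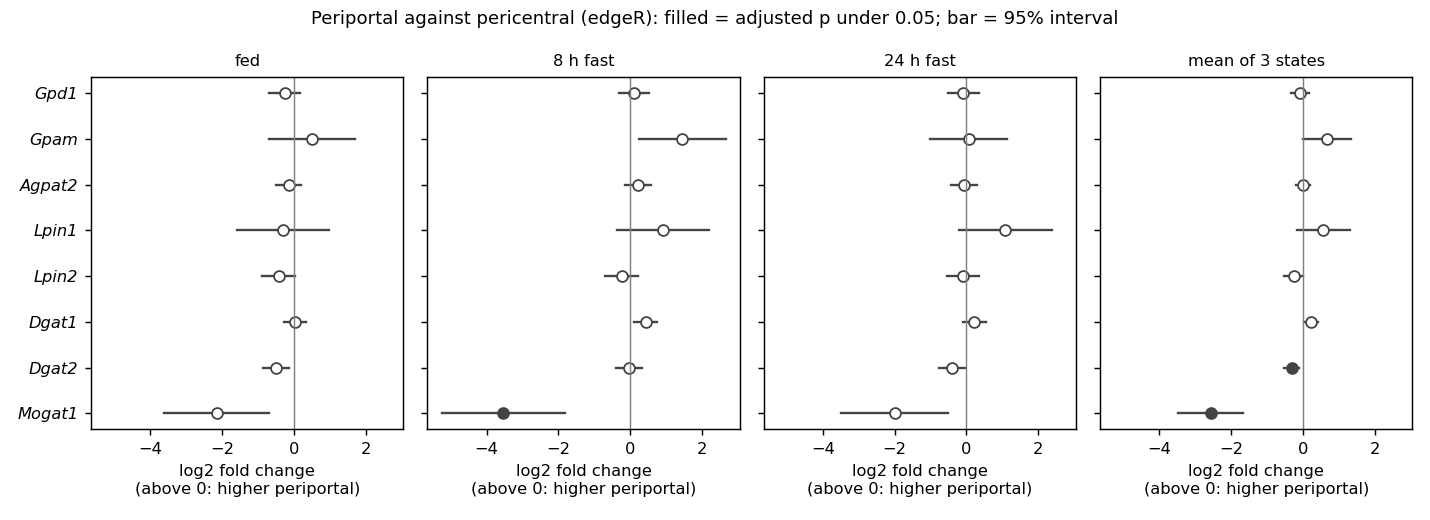
Periportal against pericentral log2 fold change of each gene in each feeding state and averaged over the states, with 95% intervals from the edgeR fit and filled points where the adjusted p was under 0.05. Mogat1 lies furthest below 0 in every panel (-2.16 fed and -3.53 after 8 h), while Gpam after 8 h (1.45) and Lpin1 after 24 h (1.08) lie above 0 and were not called.

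Calls with fasting are set out in the same way, beside the share of all genes tested. All comparisons against fed share the fed libraries of their zone, so their values are set side by side without a test of overlap. In pericentral cells after 8 h, 0 of the 8 genes rose and 1 fell (Dgat2), where 7.27% of all genes tested rose and 6.57% fell. After 24 h 2 rose (Gpam and Lpin2) and 2 fell (Agpat2 and Dgat2), against 10.8% and 11.1% of all genes. From 8 h to 24 h 2 rose (Gpam and Lpin2) and 1 fell (Agpat2), against 5.2% and 4.51%.

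In periportal cells after 8 h, 1 rose (Lpin2) and 1 fell (Dgat2), against 7.56% and 6.85% of all genes tested. After 24 h 3 rose (Gpam, Lpin1 and Lpin2) and 2 fell (Agpat2 and Dgat2), against 9.59% and 10%. The count of 5 came down to 1 without periportal 24 h replicate 3, which had the highest Kupffer cell and leukocyte marker sum (26.4 CPM), and to 2 without periportal fed replicate 1 or 2. The part of those cells in the calls was not tested. From 8 h to 24 h 1 rose (Lpin2) and 1 fell (Agpat2), against 3.22% and 4.24%. The median log2 fold change of the 8 genes after 24 h was 0.03 in pericentral and 0.20 in periportal cells, beside 0.009 and -0.002 over all genes tested, so the genes went in both directions.

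**Figure D4:**
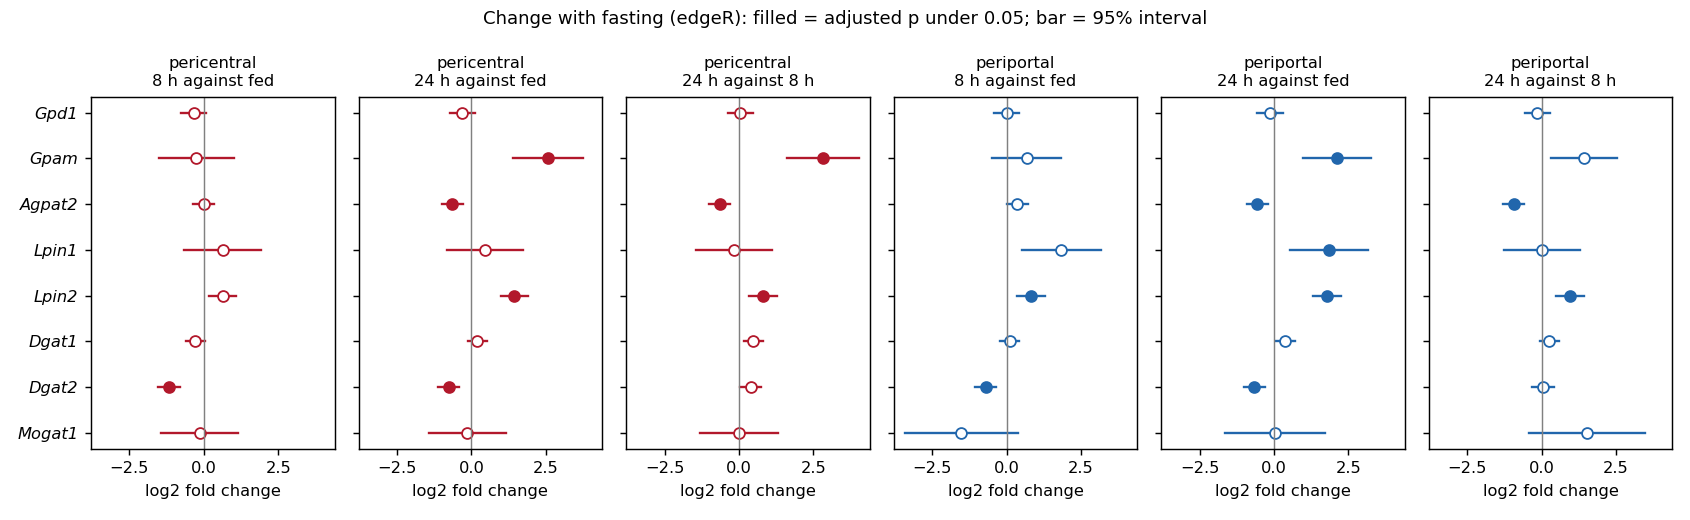
Log2 fold change of each gene between feeding states, pericentral in red and periportal in blue, with 95% intervals from the edgeR fit and filled points where the adjusted p was under 0.05. Dgat2 is already lower after 8 h (-1.16 pericentral, -0.70 periportal), while Gpam and Lpin2 are higher and Agpat2 lower after 24 h in both zones.

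Whether a change with fasting differed between the zones was tested directly, as the periportal change minus the pericentral change. None of the 8 genes was called from fed to 8 h, from fed to 24 h or from 8 h to 24 h, and 0 had an unadjusted p under 0.05. DESeq2 and limma-voom called 0 as well. Over all genes tested edgeR called 0%, 0.016% and 0% in these comparisons, with 680, 962 and 746 genes at an unadjusted p under 0.05. The intervals were wide for several members. For Lpin1 from fed to 24 h the difference was 1.38 (95% interval -0.44 to 3.19, adjusted p = 0.748 by edgeR), and for Dgat2 from fed to 8 h it was 0.46 (95% interval -0.05 to 0.97, adjusted p = 0.917). For Lpin2 from fed to 24 h it was 0.33 (95% interval -0.31 to 0.97) and for Agpat2 0.08 (95% interval -0.42 to 0.58). A larger fall of Dgat2 in pericentral cells, or a rise of Lpin1 in periportal cells only, was therefore not shown.

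Among 13 other enzymes of the same steps, 11 were tested (Gpat2 and Agpat4 had too few counts). After 24 h 5 rose and 1 fell in pericentral cells and 4 rose and 1 fell in periportal cells, where 10.8% and 11.1% of all genes rose and fell in pericentral and 9.59% and 10% in periportal cells. Their median log2 fold changes were 0.045 and 0.086, beside 0.009 and -0.002 over all genes tested. Without the pericentral library that stood apart, 4 rose and 1 fell in pericentral cells: Gpd1l was lost, and Gpat3 (2.38), Gpat4 (1.02), Gk (1.19), Gpd2 (-1.27) and Agpat3 (0.42) were still called, with adjusted p between 5.8e-05 and 0.0143. The acyltransferases that share the first step with Gpam rose in both zones. Gpat3, an enzyme of the endoplasmic reticulum, went from 3.32 to 17.6 CPM in pericentral cells (log2 fold change 2.41, SE 0.25, adjusted p = 9.93e-06 by edgeR) and from 8.67 to 20.1 CPM in periportal cells (1.21, SE 0.23, adjusted p = 0.00179). Gpat4, its close relative, went from 151 to 272 CPM and from 142 to 256 CPM, changes of 0.85 in each zone (SE 0.20, adjusted p = 0.00534 and 0.00616).

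Among the enzymes around glycerol 3-phosphate, 1 rose and 1 fell in both zones. Gk, the glycerol kinase that phosphorylates free glycerol, rose from 76.8 to 181 CPM in pericentral cells (log2 fold change 1.24, SE 0.17, adjusted p = 9.6e-05 by edgeR) and from 76.4 to 143 CPM in periportal cells (0.90, SE 0.17, adjusted p = 0.0014). Gpd2, the mitochondrial dehydrogenase that consumes glycerol 3-phosphate, fell from a mean of 69.5 CPM in fed pericentral cells (-1.42, SE 0.18, adjusted p = 5.03e-05) and from 42.5 to 24.0 CPM in periportal cells (-0.82, SE 0.18, adjusted p = 0.00428). Gpd1l, a relative of Gpd1, rose in pericentral cells (0.42, SE 0.13, adjusted p = 0.0346; 0.37 and 0.109 without the library that stood apart) and was at 0.09 in periportal cells (adjusted p = 0.713).

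At the phosphatidate step Agpat3 rose while Agpat2 fell: from 202 to 268 CPM in pericentral cells (log2 fold change 0.41, SE 0.09, adjusted p = 0.00541 by edgeR) and from 210 to 284 CPM in periportal cells (0.44, SE 0.09, adjusted p = 0.00388). Agpat1, Agpat5, Lclat1, Lpin3 and Mogat2 were not called after 24 h in either zone. Mogat2 was at most 0.641 CPM on average in any group, and Lpin3 at most 4.19 CPM. Between zones, averaged over the states, 1 of the 11 was called, against 10.3% of all genes higher and 9.96% lower. This was Gpat3, at 14.3 CPM periportal and 9.33 CPM pericentral (0.85, SE 0.14, adjusted p = 0.000255). Without the library that stood apart Gpat3 was at 0.86 (adjusted p = 0.000611), and Gpd2 was then called lower (-0.33, adjusted p = 0.0248).

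Enzymes that draw phosphatidate or diacylglycerol into phospholipids were called at a share near that of all genes after 24 h in pericentral cells. All 17 were tested, of which 2 rose and 2 fell there, against 10.8% and 11.1% of all genes, and 1 rose and 4 fell in periportal cells, against 9.59% and 10%. Their median log2 fold changes were -0.005 and -0.02. Without the library that stood apart, 2 rose and 1 fell in pericentral cells, and Selenoi, named after its values were seen, lost its call (-0.36 with all libraries, -0.25 and adjusted p = 0.193 without). Pgs1, which leads towards cardiolipin, fell in pericentral cells from 17.9 to 8.56 CPM (log2 fold change -1.07, SE 0.18, adjusted p = 0.000572 by edgeR), and without that library the change was -0.88 (adjusted p = 0.00288). In periportal cells Etnk2, an ethanolamine kinase, rose by 0.71 (SE 0.20, adjusted p = 0.0176) and Cdipt, the phosphatidylinositol synthase, fell by 0.61 (SE 0.13, adjusted p = 0.0035). Between zones 1 was higher and 5 lower in periportal cells over the states, against 10.3% and 9.96% of all genes, and 1 and 6 without that library. Etnk1 was higher (0.64, SE 0.06, adjusted p = 7.78e-07) and Chpt1, the choline phosphotransferase that uses diacylglycerol, was lower (-0.62, SE 0.09, adjusted p = 0.000123). Without that library Etnk1 was at 0.63 (adjusted p = 2.58e-06) and Chpt1 at -0.64 (adjusted p = 0.000175).

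All 12 regulators of the route were tested, and after 24 h 4 rose and 3 fell in pericentral cells and 5 rose and 3 fell in periportal cells. Of all genes 10.8% and 11.1% did so in pericentral and 9.59% and 10% in periportal cells, and the regulators' median log2 fold changes were -0.048 and -0.041. Without the pericentral library that stood apart, 4 rose and 3 fell in pericentral cells, of which 6 were also called with it: Insig2 gained a call (1.09, adjusted p = 0.0193) and Creb3l3, named after its values were seen, lost it (0.40, adjusted p = 0.0545). Srebf1 (-3.62), Insig1 (-2.41), Mlxipl (-1.33), Ppargc1a (1.86) and Foxo1 (1.38) were called there as well, with adjusted p between 1.55e-05 and 0.00782. Srebf1, the gene of the lipogenic factor SREBP-1, fell from 590 to 69.4 CPM in pericentral cells (log2 fold change -3.09, SE 0.37, adjusted p = 4.89e-05 by edgeR) and from 889 to 61.6 CPM in periportal cells (-3.85, SE 0.38, adjusted p = 1.26e-05). Its partner in sterol sensing Insig1 fell (-2.31 pericentral and -2.12 periportal, adjusted p = 3.3e-05 and 7.32e-05). Insig2 rose in periportal cells (1.59, SE 0.31, adjusted p = 0.00231). Mlxipl, the gene of the carbohydrate response factor ChREBP, fell by 1.31 and 1.05 (adjusted p = 0.00176 and 0.00862).

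Of the regulators tied to fasting, Ppargc1a, which encodes PGC-1α, rose by 1.68 in each zone (SE 0.24 and 0.23, adjusted p = 0.00016 and 0.000153 by edgeR) and Foxo1 by 1.27 and 1.37 (adjusted p = 8.57e-05 and 5.69e-05). Between zones, averaged over the states, 3 of the 12 regulators were called higher and 2 lower in periportal cells. Of all genes tested 10.3% and 9.96% were. Without the library that stood apart the counts were 3 and 1. Ppargc1a averaged 5.39 CPM pericentral against 11.5 CPM periportal in the fed state, 8.82 against 15.2 CPM after 8 h and 17.3 against 36.8 CPM after 24 h. These zone values of Ppargc1a are given outside the naming rule. Pparg, a fat-cell factor also present in liver, was lower in periportal cells. It averaged 26.8 CPM pericentral against 1.74 CPM periportal in the fed state, 14.7 against 0.954 CPM after 8 h and 19.8 against 1.11 CPM after 24 h (mean over the states -4.02, SE 0.32, adjusted p = 6.12e-07, or -4.07 and 1.21e-06 without the library that stood apart). Adipocyte markers were at or near 0 in both zones, as given above, and the cause of the Pparg difference was not tested.

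**Figure D5:**
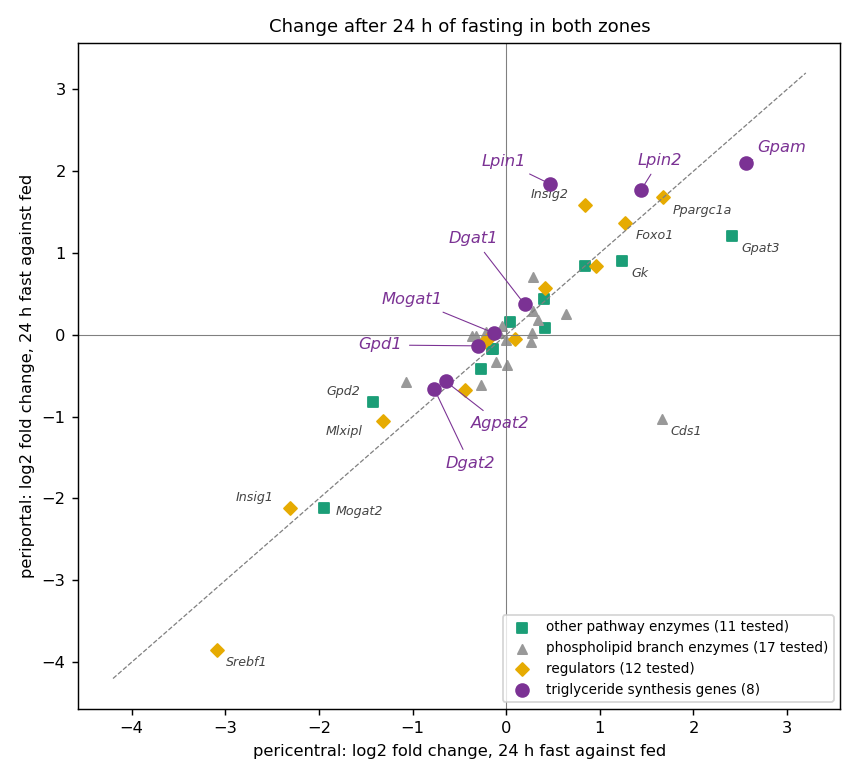
Log2 fold change from fed to 24 h in pericentral (horizontal) and periportal (vertical) cells for the 8 triglyceride synthesis genes and for the other pathway enzymes, phospholipid enzymes and regulators tested, with a dashed line of equal change. Gpam (2.56 and 2.10) and Lpin2 (1.44 and 1.77) lie near that line, Lpin1 (0.47 and 1.85) lies above it with a wide interval, and Agpat2 and Dgat2 lie below 0 on both axes.

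Genes whose levels followed each member most closely were taken as the 3 with the highest Pearson correlation of log2 CPM over the 18 libraries, a description in which the libraries share zones and states. For Agpat2 they were Acss2 (r = 0.957), Acacb (0.934) and Acsl5 (0.916). Dgat2 had Acat2 (0.933), Glrx5 (0.919) and Fbxw9 (0.905). Lpin2 had Eif1 (0.952), Bnip3l (0.941) and Mapkapk2 (0.935). Lpin1 had Eif4ebp3 (0.857), Ddit4 (0.857) and Nipa2 (0.827). Gpam had Cnst (0.904), Grsf1 (0.853) and Gadd45g (0.851), and Mogat1 had Ermp1 (0.876), Aldh4a1 (0.868) and Adhfe1 (0.865). Dgat1 had Ndfip2 (0.85), Scpep1 (0.843) and Enpp2 (0.84). Gpd1 had Alg11 (0.752), Pkp4 (0.729) and Trim39 (0.69). Among the members themselves the highest correlations over the same 18 libraries were between Gpam and Lpin2 (0.68), Gpam and Dgat1 (0.63) and Lpin1 and Lpin2 (0.558), and the lowest was between Gpam and Agpat2 (-0.632).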

How the data were processed

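Gene-level estimated counts of 18 libraries stand in 1 table that the authors deposited. Per the submitters' processing notes, kallisto 0.46.0 and the mm10 build were used. The transcript index, the map from transcripts to genes and the use of strand are not given in the sources used here. Estimated counts were rounded to units of 1. Libraries held 18360000 to 26384000 of them, and 3 libraries a group limit the precision. Differences were tested with edgeR 4.0.16 (quasi-likelihood, robust, TMM, filterByExpr on the 6 groups) in R 4.3.3, in 1 fit of all 18 libraries with 13 contrasts. P-values were adjusted by Benjamini-Hochberg over 12477 genes, with 0.05 as the threshold of a call. The SE is the log2 fold change divided by the square root of F. CPM were computed from the counts with TMM factors. The script was tested on simulated data.

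The 8 members and the other gene lists were chosen with earlier results of these data known. From the other lists, called genes with an absolute log2 fold change of at least 1 and a mean of at least 5 CPM were named, otherwise the 2 with the largest change, for 24 h against fed in each zone and for the zone mean. Other enzymes of the route could all be named. Likeness used genes of at least 10 CPM with log2 CPM at a prior count of 2. Positions and exon lengths come from GENCODE vM21 (GRCm38) and upstream sequences from RefSeq (GRCm38.p6), which gave 8 windows for 5 members. No replicate pair looked like 1 library deposited more than once, with a chi-square of 37.9 to 128 per gene. The alternatives were DESeq2 size factors, scaling without the 20 most abundant genes, no filter, a mean of at least 1 CPM, only the groups compared, the replicate number as a block, DESeq2 1.42.0, limma-voom (limma 3.58.1) and each library left out. The pairing was checked by correlating deviations from the group means: all 3 same-numbered pairs were over 0.1 only between the zones at 24 h.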

Additional observations from a re-analysis of the deposited data

How the results depend on the processing

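Over the 26 alternatives, 2606 log2 fold changes of the 8 genes kept their side of the threshold, and their direction where called. Some uncalled values among them changed sign, such as Lpin1 in pericentral cells from fed to 24 h (0.47, down to -0.15). The call was lost in 47 values and gained in 27, and a called direction turned in 0. The number of the 8 genes called moved by more than 1.5 times in these settings. With a mean of at least 1 CPM required, Mogat1 was not tested, and the zone counts were 0 after 8 h and 1 over the mean of the states. With only the groups compared in the fit, 1 was called between fed zones (Mogat1), 2 in pericentral and 1 in periportal cells from fed to 8 h; the mean over the states has no such fit of its own. With DESeq2, 2 were called between fed zones and 2 in pericentral cells from fed to 8 h. Leaving out 1 library gave 0 to 1 called between fed zones, 0 to 2 after 8 h, 0 after 24 h and 1 to 3 over the mean. For pericentral cells it gave 1 to 2 from fed to 8 h, 3 to 4 from fed to 24 h and 1 to 4 from 8 h to 24 h. For periportal cells it gave 1 to 4 from fed to 8 h, 1 to 5 from fed to 24 h and 1 to 2 from 8 h to 24 h. The zone differences stayed at 0 in all of these. The cause was not tested beyond the fewer libraries or genes in a fit.

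With the replicate number as a block, Lpin1 in periportal cells from fed to 24 h was 1.84 (adjusted p = 0.0729 by edgeR) and lost its call, which left 4 called there. No other call of the 8 genes changed under the block. Over all groups, deviations of same-numbered libraries had a median correlation of 0.032 (from -0.12 to 0.206); 7 of 45 such pairs and 3 of 90 others exceeded 0.1, and 10 of 18 libraries correlated best with their own number, a hint from the data that the labels do not give. Between the zones at 24 h all 3 same-numbered pairs were over 0.1 (0.121 to 0.165) and the 6 others below 0 (-0.121 to -0.024). Deviations from a mean of 3 libraries sum to 0, so the values below 0 are not separate evidence. Whether the numbers pair those groups is thus not settled. A fit of the 24 h groups alone with the replicate block, chosen after seeing the data, called 0 of the 8 genes between zones and 3.27% of all genes tested (4.17% in the fit of all libraries), with Lpin1 at 1.29 (adjusted p = 0.439 by edgeR) and Mogat1 at -1.78 (adjusted p = 0.121). Lpin1 in periportal cells from fed to 24 h also lost its call with no filter on low counts. With only the groups compared, the calls of Dgat2 in periportal cells from fed to 8 h and of Lpin2 in pericentral cells from 8 h to 24 h were lost.

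Over all genes tested, the share called fell with only the groups compared, from 7.14% to 3.89% between zones after 8 h, from 9.71% to 5.34% in pericentral and from 7.46% to 3.56% in periportal cells from 8 h to 24 h. With DESeq2 it rose from 4.17% to 6.58% between zones after 24 h, and for the zone differences it was 0.0481%, 0.305% and 0.024%. With no filter the shares were lower, since more genes stood in the denominator (4.2% in place of 8.01% between fed zones). The share for the zone difference from fed to 24 h, 0.016%, was 0.00977% with no filter, 0.00953% at a mean of at least 1 CPM and 0% with the block or limma-voom. Few counts limit Gpam and Mogat1, and the spread between 3 libraries limits Lpin1.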
